A study of Mus musculus with 9 samples.

Results

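Bile duct ligation (BDL) was compared with a sham operation in polyA RNA libraries of mice, across all genes that reached a mean of 1 FPKM over the 6 libraries of the comparison. FPKM counts sequenced fragments per length of transcript and per sequenced total, and changes are given as differences of log2(FPKM + 1), BDL minus sham. The 6 libraries, 3 sham and 3 BDL, are part of a series of 9. The rule kept 9862 of the 22173 genes in the table. The labels call every library cholangiocyte and give the treatment of the mice as sham or as BDL. Neither group received senkyunolide A, the compound given to the ligated mice of the other 3 libraries. Strain, genotype, sex, age, the time between operation and collection and the way the cells were isolated are not given by the labels used here. Nor is it stated whether each library is a separate mouse, so the tests rest on the spread among libraries, part of which may be technical.

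Hepatocytes make bile acids from cholesterol and pump them into small channels that drain into the bile ducts, which cholangiocytes line. Ligation of the common bile duct stops this flow, so that bile acids and other bile constituents build up in the liver, and it is a standard rodent model of cholestasis. In ligated animals the ducts proliferate, immune cells enter the liver, hepatocytes alter their bile acid and drug metabolism, and scar tissue forms over time.

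The estimated depth was 27.2 to 33.8 mega fragments per library, and the correlation of log2(FPKM + 1) was 0.972 to 0.993 among the sham and 0.940 to 0.967 among the BDL libraries. The libraries carried the transcripts of hepatocytes. All 36 hepatocyte markers passed the filter, 3 called higher and 8 lower; the number higher ranged from 1 without sham 2, sham 3 or BDL 2 to 5 without BDL 3 and the number lower from 5 without BDL 2 to 9 without BDL 3. They took 24.8, 30.2 and 28.6% of the summed FPKM in sham 1, 2 and 3 and 26.4, 20 and 23% in BDL 1, 2 and 3 (exact two-sided permutation p = 0.2). Albumin (Alb) read 29048, 46222 and 39121 in sham and 33405, 21395 and 36654 FPKM in BDL. The 38 cholangiocyte markers together took 0.0907, 0.0636 and 0.0649% of the summed FPKM in sham 1, 2 and 3 and 0.335, 0.291 and 0.516% in BDL 1, 2 and 3. In the BDL libraries most of this share was Krt18, Spp1 and Tm4sf4, at 678, 551 and 267 FPKM in BDL 3. Krt18 is also made by hepatocytes, and Spp1 is on the list of macrophage markers too, so it counts in both shares. Krt19, the keratin most used to define cholangiocytes, read 0.9602, 0.816 and 0.672 in sham and 2.28, 2.19 and 6.7 FPKM in BDL (1.25 ± 0.31; limma adjusted p = 0.021, and 0.0549 without sham 1). The chloride channel gene Cftr and the secretin receptor gene Sctr did not pass the filter. The label was therefore not matched by the leading transcripts, and the libraries are called sham and BDL throughout. In bulk RNA of this kind fewer cells of a type and less RNA per cell cannot be told apart.

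In the fit over all genes 1336 of 9862 genes were called (13.5%), 970 higher (9.84%) and 366 lower (3.71%) in BDL (limma, Benjamini-Hochberg adjusted p under 0.05). The counts of each gene list below are to be read beside these shares, and several lie near them. The 2 groups did not overlap in 2986 genes (30.3%), with BDL above sham in 2094 (21.2%) and below it in 892 (9.04%). Small changes were mostly rises and very large ones mostly falls. A change of at least 1 on the log2 scale was called in 710 genes higher and 269 lower, and one of at least 5 in 6 genes higher and 19 lower. The median change of all tested genes was 0.148 on the deposited scale, -0.019 after median-ratio scaling and -0.034 after quantile normalization. Those scalings moved the split of the calls from 72.6% higher to 55.3% (702 higher, 567 lower) and 54.6% (679 higher, 565 lower), so list medians near 0.148 are read as close to no change. In 6 further fits, each without 1 library, 574 of the called genes remained called throughout, 420 higher and 154 lower. The total rose to 1869 without BDL 3 and fell to 763 without sham 2, 770 without sham 3 and 729 without BDL 2.

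**Figure D1:**
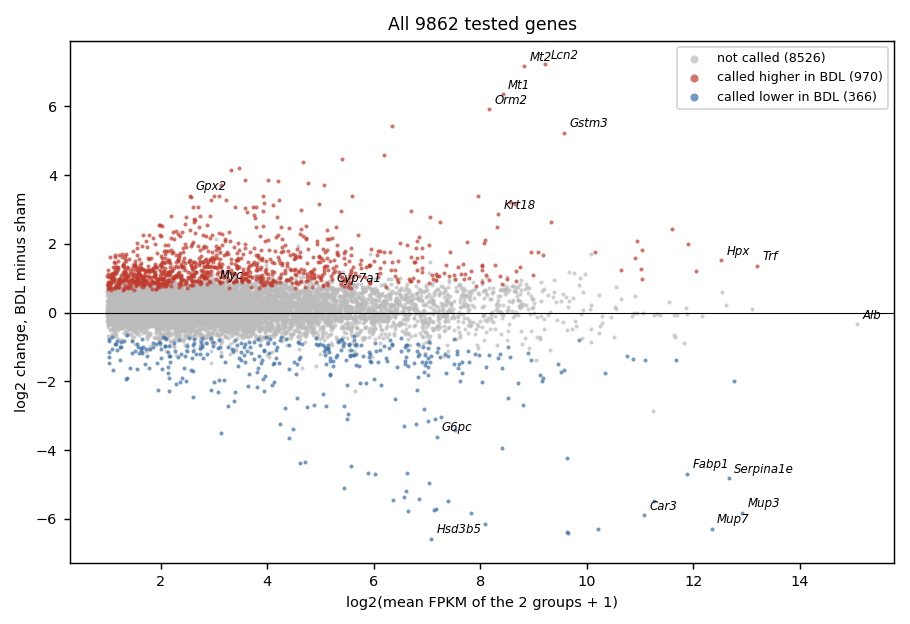
Each point is 1 of the 9862 tested genes, with log2(mean FPKM of the 2 groups + 1) on the horizontal axis and the log2 change, BDL minus sham, on the vertical axis. Red points are the 970 genes called higher, blue points the 366 called lower and grey points the genes not called; the falls below -5 include genes of very high level such as Mup3 and Mup7.

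Lcn2 (chromosome 2, 32384637 to 32387739 in GRCm38), which encodes the siderophore-binding protein lipocalin 2, read 2.85, 14.7 and 5.19 in sham 1, 2 and 3 and 1583, 1411 and 554 FPKM in BDL 1, 2 and 3. All BDL libraries lay far above all sham libraries, and BDL 3 was the lowest of them. The log2 change was 7.22 ± 0.5 (SE; limma adjusted p = 8.58e-06), the largest among called genes. Orm2 (chromosome 4, 63362449 to 63365877), an orosomucoid of the acute phase response, read 6.88, 11.3 and 6.83 in sham and 555, 412 and 722 FPKM in BDL, a change of 5.91 ± 0.28. Cib3, a member of the calcium and integrin binding family, read 11.3, 5.17 and 1.43 in sham and 125, 108 and 184 FPKM in BDL and changed by 4.58 ± 0.47. The cornified envelope gene Sprr1a read 0.04098, 0 and 0 in sham and 11.3, 25.4 and 16.9 FPKM in BDL. Spink1, a secreted trypsin inhibitor, read 0, 0.0829 and 0.0867 in sham and 10.03, 25.8 and 24.6 FPKM in BDL. Both were near 0 in every sham library and above 10 FPKM in every BDL library. Their changes were 4.15 ± 0.28 and 4.22 ± 0.32. Gipc2, a PDZ domain adaptor, read 0.121, 0.0524 and 0 in sham and 9.93, 10.3 and 9.05 FPKM in BDL and was among the 10 genes of smallest p (3.35 ± 0.2, limma adjusted p = 6.2e-06). So was Mfge8, which encodes a milk fat globule protein that bridges dying cells to phagocytes, with 5.03, 3.82 and 2.69 in sham and 56.3, 72.4 and 56.1 FPKM in BDL (3.71 ± 0.25). The ubiquitin-like gene Ubd and the surface protein gene Ly6d rose by 3.85 ± 0.29 and 4.38 ± 0.54.

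The leading falls were in genes of high level in sham. Hsd3b5 (chromosome 3, 98618636 to 98645534), a steroid-metabolizing enzyme of male mouse liver, read 301, 241 and 259 in sham 1, 2 and 3 and 1.12, 2.69 and 1.76 FPKM in BDL 1, 2 and 3. The groups were separated by 2 orders of magnitude with little spread inside either, and the log2 change was -6.58 ± 0.25 (limma adjusted p = 1.17e-07), the smallest p of all genes. The carbonic anhydrase Car3 read 3661, 4790 and 4041 in sham and 21.3, 41.8 and 349.5 FPKM in BDL, a change of -5.9 ± 0.74. Elovl3, a fatty acid elongase, read 390.1, 406 and 528 in sham and 1.36, 6.31 and 24.9 FPKM in BDL (-5.84 ± 0.63). The sulfotransferase Sult2a8 read 371, 611 and 621 in sham and 2.203, 3.23 and 28.7 FPKM in BDL (-6.14 ± 0.65). In these 3 genes BDL 3 was the highest BDL library, still below every sham library.

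**Figure D2:**
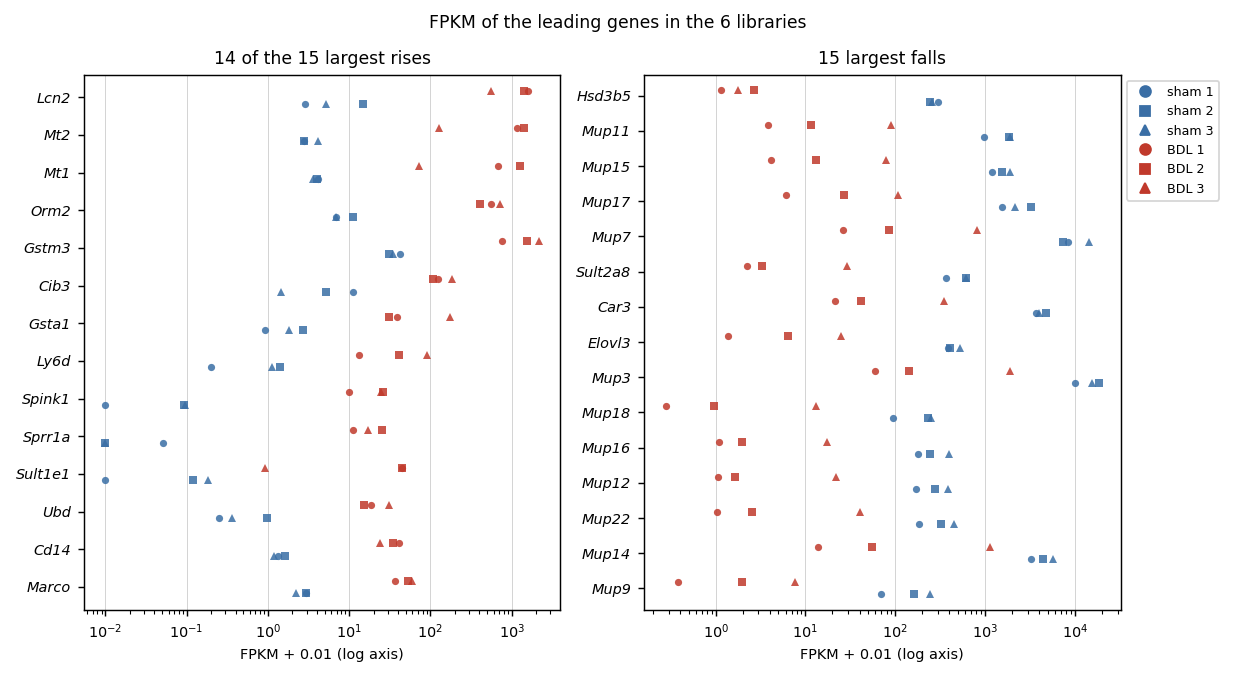
From the 15 largest rises, 14 (left), and the 15 largest falls (right) among called protein-coding genes whose groups do not overlap, as FPKM + 0.01 on a log axis. Blue symbols are the 3 sham and red symbols the 3 BDL libraries; BDL 3, the red triangle, is the BDL library nearest to sham in 14 of the 15 falls, Hsd3b5 being the exception.

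The broadest fall was in the major urinary protein genes, a cluster of near-identical liver genes on chromosome 4 whose products carry pheromones in urine and whose transcription in liver depends on pulses of growth hormone. Of 19 tested members 18 were called lower and none higher, against 3.71% of all tested genes, with a median change of -5.44. The whole list took 6.34, 8.08 and 9.51% of the summed FPKM in sham 1, 2 and 3 and 0.0503, 0.103 and 1.82% in BDL 1, 2 and 3. Mup7 read 8316, 7381 and 14502 in sham and 26.1, 85.3 and 812 FPKM in BDL (-6.28 ± 0.9, limma adjusted p = 0.000992). Mup3 read 10132, 18568 and 15473 in sham and 58.8, 144 and 1877 FPKM in BDL (-5.82 ± 0.92). Mup17 and Mup11 changed by -6.3 ± 0.73 and -6.41 ± 0.79. In each of these genes all BDL libraries lay below all sham libraries and BDL 3 was several times above BDL 1 and BDL 2. Mup14, at 3275, 4400 and 5747 in sham and 13.9, 54.5 and 1150 FPKM in BDL, was called (-5.47 ± 1.12) but not in every subset (limma adjusted p = 0.0716 without BDL 2). The member that was not called, Mup20, encodes the male pheromone darcin and read 2948, 3189 and 3463 in sham 1, 2 and 3 and 112, 166 and 4579 FPKM in BDL 1, 2 and 3. BDL 1 and BDL 2 were far below sham there, while BDL 3 was above every sham library (log2 difference -2.85 ± 1.03, limma adjusted p = 0.092; called without BDL 3, limma adjusted p = 2.05e-07). Reads may be divided among these near-identical genes, so single values are uncertain and the summed share is the safer reading. Mup22, a further family member outside the list, read 184, 323 and 450.5 in sham and 1.02, 2.51 and 41.02 FPKM in BDL (-5.49 ± 0.85).

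Genes known to be higher in male than in female mouse liver fell as well, a program set by the pulsed secretion of growth hormone through STAT5B. Of 24 tested members 19 were called lower and none higher, with a median of -2.71; the count ranged from 15 without BDL 2 to 21 without BDL 3. Beside Hsd3b5, the oxysterol hydroxylase Cyp7b1 read 174, 140.1 and 283 in sham and 14.3, 13.1 and 37.4 FPKM in BDL (-3.24 ± 0.38). The organic anion uptake transporter Slco1a1 read 152, 253 and 249.7 in sham and 0.806, 1.28 and 29.1 FPKM in BDL (-5.42 ± 0.8). The glucuronosyltransferase Ugt2b1 read 386, 689.8 and 757 in sham and 20.9, 14.99 and 158 FPKM in BDL (-3.94 ± 0.67). The protease inhibitor Serpina1e read 10051, 13374 and 13435 in sham and 178, 309.6 and 1473 FPKM in BDL (-4.81 ± 0.6). Each fell without overlap, with BDL 3 the nearest to sham. Of 14 tested genes known to be higher in female liver 5 were called higher and 2 lower, and the number higher ranged from 0 without sham 1 or BDL 2 to 8 without BDL 3. Those called higher included Cux2, a female-biased transcription factor that represses male-biased genes and that passed the filter only through BDL 1 and BDL 2. Cux2 read 0.0363, 0.00392 and 0.008204 in sham and 6.76, 6.03 and 0.102 FPKM in BDL (1.95 ± 0.57; limma adjusted p = 0.0657 to 0.224 without any one of sham 1, sham 2, BDL 1 and BDL 2). The female-biased Cyp4a10, a fatty acid omega-hydroxylase that is also a PPARA target, fell (53.1, 193 and 188 in sham and 32.1, 24.4 and 11.6 FPKM in BDL, -2.52 ± 0.48).

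Among 16 genes of the growth hormone axis itself 4 were called lower and 1 higher, the latter being Cux2; the number higher ranged from 0 without sham 1, sham 2, BDL 1 or BDL 2 to 3 without BDL 3. The growth hormone receptor gene Ghr fell, at 161, 193 and 205 in sham and 52.2, 38.9 and 80.9 FPKM in BDL (-1.74 ± 0.28, limma adjusted p = 0.00209). Igfbp3, which encodes the main carrier of insulin-like growth factors, read 4.76, 4.29 and 3.404 in sham and 0.419, 0.7801 and 0.906 FPKM in BDL (-1.6 ± 0.22). The transcription factor Onecut1 fell too (-1.68 ± 0.33). Igf1, Stat5b, Jak2 and Socs2 were not called in all 6 libraries (Socs2 was called without BDL 3, limma adjusted p = 0.0499), with log2 differences of -0.25, -0.4, 0.06 and 0.09. Their 95% intervals were -0.78 to 0.27, -0.88 to 0.08, -0.39 to 0.51 and -0.95 to 1.12.

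BDL 3 stood apart from BDL 1 and BDL 2 in part of these genes. Of the 366 genes called lower BDL 3 was the BDL library nearest to sham in 276. This did not hold for the 970 genes called higher, where the nearest was BDL 1 in 463, BDL 3 in 354 and BDL 2 in 153. There were 29 tested genes with an SD of log2(FPKM + 1) of at least 1.5 among the BDL libraries and under 0.5 among the sham libraries, and in 28 of them BDL 3 was the library farthest from the other BDL libraries. The 10 genes of largest spread among BDL libraries included Mup14, Mup20, Cyp4a12a, Fabp1, Sult1e1, Mup3, Mup7, Rgs16 and Mup22. Sult1e1, which sulfates estrogens, read 0, 0.111 and 0.174 in sham 1, 2 and 3 and 45.3, 44.99 and 0.922 FPKM in BDL 1, 2 and 3 (log2 change 3.87 ± 0.92; limma adjusted p = 0.0744 without sham 1 and 0.125 without BDL 2). Rgs16, a regulator of G protein signalling, read 1.12, 1.36 and 0.298 in sham and 18.5, 21.6 and 0.256 FPKM in BDL and was not called (limma adjusted p = 0.119; called without BDL 3, limma adjusted p = 6.17e-06). Cyp4a12a, an arachidonic acid hydroxylase of male liver and kidney, read 214, 254 and 253 in sham and 0.7699, 3.104 and 62.3 FPKM in BDL (-4.96 ± 0.94; limma adjusted p = 0.0544 without BDL 2). BDL 3 lay on the sham side of BDL 1 and BDL 2 in each gene named here. The depth of BDL 3 was 32.0 mega fragments, within the range of the others, and the labels give no batch. Its shares of endothelial, stellate cell and cell cycle transcripts, given further on, also differed from those of BDL 1 and BDL 2, and their part in these genes was not tested.

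**Figure D3:**
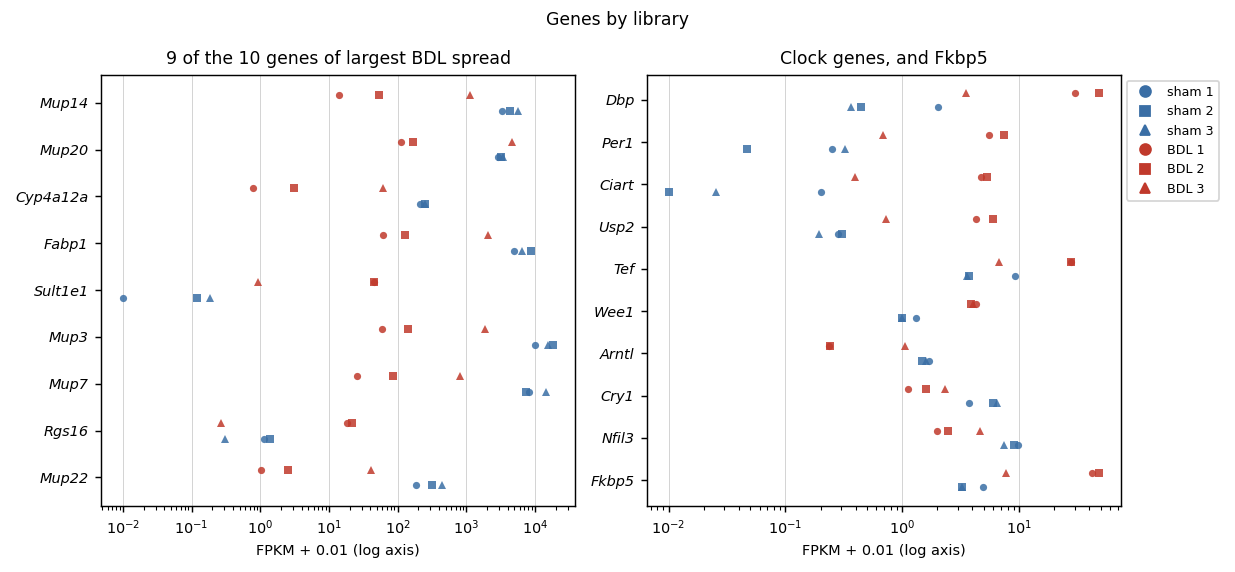
FPKM + 0.01 on a log axis in the 3 sham (blue) and 3 BDL (red) libraries. Left, 9 of the 10 tested genes with the largest SD among BDL libraries, where BDL 3 (red triangle) lies on the sham side of BDL 1 and BDL 2; right, 9 circadian genes and Fkbp5, where BDL 3 is again mostly between sham and the other BDL libraries.

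Drug-metabolizing enzymes were lower by family, with single members going the other way. Of 35 tested genes of cytochrome P450 families 1 to 3, the main oxidases of drugs and steroids, 14 fell and 4 rose (median -0.43). With 1 library left out the number higher ranged from 2 without BDL 2 to 6 without BDL 3 and the number lower from 9 without BDL 2 to 15 without BDL 3. The number lower was 7 without the filter and 8 in the fit of all 9 libraries, and the number higher 1 without the filter, 2 under median-ratio scaling and 2 under quantile normalization. Cyp2d40 read 72.8, 78.3 and 71.8 in sham and 7.66, 13.3 and 11.2 FPKM in BDL (-2.71 ± 0.24, limma adjusted p = 5.35e-05) and Cyp2c29 862, 842 and 871 in sham and 273, 183 and 289 FPKM in BDL (-1.81 ± 0.25). Cyp2e1, which oxidizes ethanol and acetaminophen, read 3649, 2524 and 3260 in sham and 1346, 1456 and 846 FPKM in BDL (-1.39 ± 0.3). The largest P450 rise was in Cyp2a5, a coumarin hydroxylase that also acts on bilirubin, at 100.1, 47.5 and 67.7 in sham and 1024, 916 and 262 FPKM in BDL (3.17 ± 0.46). Cyp3a11, the main CYP3A enzyme of mouse liver, was not called (log2 difference -0.06 ± 0.41, limma adjusted p = 0.947). Among 13 family 4 genes, most of them fatty acid hydroxylases, 8 fell, from 3 without BDL 2 to 8 without BDL 1 or BDL 3, and Cyp4f16 alone rose (1.79 ± 0.23). Members of the Cyp2c and Cyp4a families are close in sequence and reads may be divided among them.

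Carboxylesterases, which hydrolyse esters of lipids and drugs, were listed with the flavin monooxygenases. Of 19 genes 10 fell and 3 rose, with a median of -1.47, and the number higher ranged from 1 without sham 2 to 5 without BDL 3. Ces3a read 1435, 1438 and 1503 in sham and 36.1, 39.5 and 306 FPKM in BDL (-4.24 ± 0.63), Ces3b fell by 3.03 ± 0.35 and Ces1d by 2.47 ± 0.26. Ces2b was the one gene of the table that exceeded 1 FPKM in all sham libraries and stayed under 0.1 FPKM in all BDL libraries. It read 2.27, 2.15 and 2.4 in sham 1, 2 and 3 and 0.00866, 0.0546 and 0.0276 FPKM in BDL 1, 2 and 3 (-1.67 ± 0.18, limma adjusted p = 0.000149). The rises included Ces1g and Fmo5 (limma adjusted p of Fmo5 = 0.0753 without sham 2). Of 22 glucuronosyltransferases and sulfotransferases, which conjugate drugs, hormones and bilirubin, 8 fell and 3 rose, with a median of -0.78; the number higher ranged from 1 without sham 1 or BDL 2 to 3 without BDL 3 and the number lower from 6 without BDL 2 to 13 without BDL 3. The phenol sulfotransferase Sult1a1 rose, from 33.1 ± 7.83 to 144 ± 56.5 FPKM (SD, n = 3; 2.03 ± 0.32), while Ugt1a1, which conjugates bilirubin, was not called (-0.37 ± 0.37). Among 21 alcohol and aldehyde dehydrogenases 4 fell and 2 rose, and the number lower ranged from 1 without sham 2 or sham 3 to 4 without BDL 3. The 29 pericentral genes, expressed around the central vein, had 10 lower and 2 higher with a median of -0.75. With 1 library left out the number lower ranged from 6 without sham 3 or BDL 2 to 15 without BDL 3, and it was 5 without the filter and 6 in the fit of all 9 libraries. The 30 periportal genes had 5 lower and 3 higher with a median of 0.03 that turned to -0.17 and -0.04 under median-ratio and quantile scaling, and the number higher ranged from 1 without sham 2, sham 3 or BDL 2 to 7 without BDL 3.

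Glutathione transferases and other antioxidant enzymes rose in part. Of 22 tested transferases, which attach glutathione to reactive compounds, 8 rose and none fell (median 0.61). Gstm3 (chromosome 3, 107963696 to 107969174) read 41.8, 30.5 and 34.8 in sham 1, 2 and 3 and 761, 1545 and 2153 FPKM in BDL 1, 2 and 3, with no overlap and BDL 3 the highest (5.23 ± 0.35, limma adjusted p = 7.06e-06). Gsta1 read 0.902, 2.68 and 1.83 in sham and 38.7, 30.5 and 174 FPKM in BDL (4.48 ± 0.53) and the abundant Gstm1 1216, 899.8 and 735 in sham and 3301, 6486 and 5846 FPKM in BDL (2.43 ± 0.33). The microsomal Mgst3 read 6.82, 13.7 and 8.88 in sham and 34.05, 88.8 and 51.6 FPKM in BDL (2.4 ± 0.35). The pi class was not called, with Gstp1 at -0.7 ± 0.33, and mu and alpha members are near-identical, so reads may be divided among them. Of 31 targets of NRF2, the transcription factor of the oxidant response, 15 rose and 1 fell, and the number higher ranged from 7 without BDL 2 to 14 without BDL 3 and the number lower from 0 without sham 1, sham 2 or BDL 2 to 3 without BDL 3. The number higher was 6 without the filter and 9 under median-ratio scaling. The epithelial glutathione peroxidase Gpx2 was near 0 in sham and read 9.68, 8.12 and 11.5 FPKM in BDL 1, 2 and 3 (3.4 ± 0.21). The quinone reductase Nqo1 read 2.59, 1.94 and 2.98 in sham and 26.3, 23.4 and 18.6 FPKM in BDL (2.76 ± 0.24), and the aldo-keto reductase Akr1b7, sulfiredoxin Srxn1 and heme oxygenase Hmox1 rose by 2.55 ± 0.29, 2.07 ± 0.35 and 1.77 ± 0.34. The glutamate cysteine ligase genes Gclc and Gclm, which start glutathione synthesis, were not called (-0.96 and 0.5; Gclc was called without BDL 3, limma adjusted p = 0.000517). The NADP-dependent malic enzyme Me1, also a lipogenic gene, was the listed target that fell (-1.43 ± 0.34; limma adjusted p = 0.0657 to 0.0947 without any one of sham 1, sham 2 and BDL 2).

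Metallothioneins bind zinc and copper and are switched on by metal-loaded MTF1, glucocorticoids and cytokine signals. Mt2 (chromosome 8, 94172618 to 94173567) read 2.74, 2.77 and 4.08 in sham 1, 2 and 3 and 1166, 1406 and 128 FPKM in BDL 1, 2 and 3. Its neighbour Mt1 (chromosome 8, 94178883 to 94180327) read 4.18, 4.02 and 3.54 in sham 1, 2 and 3 and 684, 1280 and 73.3 FPKM in BDL 1, 2 and 3. The sham values of both were under 5 FPKM, BDL 1 and BDL 2 were at 684 FPKM or more, and BDL 3 was lower than those yet above every sham library. The changes were 7.17 ± 0.69 and 6.36 ± 0.76 (limma adjusted p = 9.44e-05 and 0.00031). Among the 18 tested metallothioneins and zinc transporters the other call was a fall of Slc30a10, which exports manganese, at 13.8, 9.72 and 11.7 in sham and 1.31, 1.32 and 4.49 FPKM in BDL (-2.03 ± 0.33), and the number higher ranged from 2 without sham 1, sham 2, sham 3 or BDL 2 to 4 without BDL 1 or BDL 3. The zinc importer Slc39a14, an acute phase gene in mouse liver, differed by 0.89 ± 0.37 and was not called (limma adjusted p = 0.143; called without BDL 3, limma adjusted p = 0.0139).

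The promoter windows of Mt2 and Mt1, 250 bases before to 50 after the start that the RefSeq promoter table takes, are shown because these neighbouring genes rose together, with matches to the core of the metal response element in capitals. The letters searched were TGCACNC and TGCGCNC on both strands. The sequences are from RefSeq, GRCm38.p6, plus strand, 5′ to 3′, at chr8:94172368-94172667 and chr8:94178839-94179138. For Mt2 that start is the gene's first annotated base, whereas for Mt1 it lies inside the annotated gene, so that the Mt1 window also covers gene sequence upstream of it.
Mt2: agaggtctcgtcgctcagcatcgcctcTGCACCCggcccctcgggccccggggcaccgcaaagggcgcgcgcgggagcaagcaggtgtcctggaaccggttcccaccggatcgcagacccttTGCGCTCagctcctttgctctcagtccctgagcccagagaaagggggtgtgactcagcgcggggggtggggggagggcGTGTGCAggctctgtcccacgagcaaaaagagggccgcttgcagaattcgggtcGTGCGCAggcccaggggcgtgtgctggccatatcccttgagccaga
Mt1: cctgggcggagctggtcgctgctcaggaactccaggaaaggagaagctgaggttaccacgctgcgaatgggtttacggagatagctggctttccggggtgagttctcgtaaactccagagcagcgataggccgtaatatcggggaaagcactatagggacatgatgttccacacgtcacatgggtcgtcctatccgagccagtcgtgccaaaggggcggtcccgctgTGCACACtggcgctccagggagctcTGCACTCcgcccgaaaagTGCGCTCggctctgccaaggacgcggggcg
The Mt2 window held 4 matches and the Mt1 window 3. At least 1 match was present in 36.1% of the 7977 tested genes with a window, in 33.0% of the 743 such genes called higher and in 23.6% of the 288 called lower, so a match is common by itself. The antioxidant response element core TGACNNNGC was present in 15% of tested, 13.9% of higher and 11.5% of lower genes, and the STAT site TTCNNNGAA in 6.87%, 7.0% and 6.25%. A shortened NF-kappaB site, GGGNNTTTC, was present in 4.01%, 6.59% and 3.12%, the sterol response element TCACNCCAC in 1.1%, 1.08% and 0.347%, and the E-box CACGTG in 10.7%, 9.69% and 7.64%. These are descriptions without a test.

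Genes that carry, store or regulate iron rose in part. Of 27 tested 14 were called higher and none lower, against 9.84% higher among all tested genes, with a median of 0.83; the count ranged from 7 without sham 2 to 15 without BDL 3. It was 2 without the filter, 5 under median-ratio scaling and 9 in the fit of all 9 libraries. Lcn2 is on this list and also on the acute phase and neutrophil lists, so the counts of these lists are not separate. The iron list took 3.28, 2.94 and 2.88% of the summed FPKM in sham 1, 2 and 3 and 9.33, 9.97 and 7.32% in BDL 1, 2 and 3, all BDL libraries above all sham libraries. A few very abundant genes carried this difference. Without the 20 most abundant genes of each library the mean share was 2.54% in sham and 1.73% in BDL. Hamp, which encodes the iron hormone hepcidin, read 1268, 467 and 647 in sham and 2818, 3944 and 2561 FPKM in BDL (2.07 ± 0.36, limma adjusted p = 0.00333). Id1, like Hamp a target of bone morphogenetic protein signalling, read 13.4, 3.15 and 4.31 in sham and 20.9, 40.6 and 28.02 FPKM in BDL (2.13 ± 0.41). The hemoglobin scavenger Hp read 1338, 1495 and 1671 in sham and 7752, 6333 and 4334 FPKM in BDL (2.0 ± 0.3). The heme scavenger Hpx read 2116, 3964 and 3201 in sham and 7485, 8484 and 10084 FPKM in BDL (1.53 ± 0.32). Transferrin (Trf) showed the largest gain in mean FPKM of any called gene, 8394 FPKM, at 6013, 4764 and 4656 in sham and 15325, 15812 and 9477 FPKM in BDL (1.37 ± 0.32; limma adjusted p = 0.0515 to 0.0887 without any one of sham 2, sham 3 and BDL 2). The ferritin subunits Ftl1 and Fth1 gained 3497 and 1815 FPKM. Ftl1 changed by 1.2 ± 0.32 (limma adjusted p = 0.0626 to 0.12 without any one of sham 1, sham 2, sham 3 and BDL 2) and Fth1 by 1.28 ± 0.31 (limma adjusted p = 0.0547 to 0.0824 without any one of sham 2, sham 3 and BDL 2). The transferrin receptor Tfrc and the exporter Slc40a1 were not called (0.12 and 0.57).

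Fatty acid oxidation genes fell in part. Of 46 tested genes of the nuclear receptor PPARA and of peroxisomal and mitochondrial oxidation 22 were called lower and 3 higher, with a median of -0.9, and the number higher ranged from 1 without sham 1, BDL 1 or BDL 2 to 5 without BDL 3 and the number lower from 10 without BDL 2 to 28 without BDL 3. The number lower was 9 without the filter, and the number higher 1 with a filter at 0.1 FPKM, 1 without the filter, 1 under median-ratio scaling and 1 under quantile normalization. Ppara read 27.4, 16.9 and 21.04 in sham and 11.4, 9.18 and 6.64 FPKM in BDL (-1.18 ± 0.26, limma adjusted p = 0.0124). Acsl1, which activates fatty acids, read 242, 135 and 181 in sham and 39.1, 36.9 and 35.5 FPKM in BDL (-2.25 ± 0.25). The mitochondrial carnitine acyltransferase Cpt2 read 63.8, 64.8 and 76.9 in sham and 26.8, 27.1 and 32.2 FPKM in BDL (-1.23 ± 0.22). Each was lower in all 3 BDL libraries. The liver fatty acid binding protein Fabp1 read 4926, 8834 and 6545 in sham 1, 2 and 3 and 61.7, 127 and 2099 FPKM in BDL 1, 2 and 3, BDL 3 between the others and sham (-4.68 ± 0.95; limma adjusted p = 0.07 without BDL 2). Cpt1a, which controls entry of fatty acids into mitochondria, was not called (0.16 ± 0.31). The fatty acid uptake receptor Cd36 rose, at 8.12, 14.7 and 10.9 in sham and 63.3, 38.8 and 41.7 FPKM in BDL (2.0 ± 0.27). The lipoprotein lipase Lpl, which adult hepatocytes express little, rose from 12.1 ± 1.08 to 60.2 ± 22.4 FPKM (SD, n = 3; 2.16 ± 0.28).

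Cholesterol synthesis genes, targets of the sterol sensor SREBP2, rose: 15 of 28 were called higher and none lower, with a median of 0.92. Mvd, a decarboxylase of the mevalonate pathway, read 12.9, 3.78 and 2.39 in sham and 31.9, 48.3 and 22.2 FPKM in BDL (2.46 ± 0.45). Hmgcs1, the synthase early in that pathway, read 135, 101 and 88.2 in sham and 292, 214 and 307 FPKM in BDL (1.32 ± 0.26). In both genes sham 1 was above sham 2 and sham 3, though below every BDL library. The count ranged from 5 without sham 3 to 17 without sham 1, and was 3 without the filter. The list took 0.366, 0.235 and 0.225% of the summed FPKM in sham 1, 2 and 3 and 0.533, 0.499 and 0.478% in BDL 1, 2 and 3. Of 28 fatty acid synthesis genes 6 fell and 3 rose; the number higher ranged from 2 without sham 2, BDL 1 or BDL 2 to 5 without sham 1 and the number lower from 3 without sham 2 or BDL 2 to 8 without sham 3. Fatty acid synthase (Fasn) was not called (1.19 ± 0.44, limma adjusted p = 0.0993; called without sham 1, limma adjusted p = 0.00955). Of 31 apolipoprotein and lipoprotein genes 4 rose and 2 fell; the number higher ranged from 1 without BDL 2 to 7 without BDL 3 and the number lower from 0 without sham 2 or sham 3 to 5 without BDL 3. Apoa1, Apoe and Apob were not called (0.12, 0.23 and -0.73).

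Bile acid synthesis enzymes fell in part. Of 17 tested 8 were lower and none higher (median -0.53); the number lower ranged from 5 without sham 2 or BDL 2 to 8 without BDL 3, and it was 4 in the fit of all 9 libraries. Cyp8b1, the sterol hydroxylase that makes cholic acid, read 282, 160.3 and 167 in sham and 56.4, 65.9 and 45.7 FPKM in BDL (-1.81 ± 0.27, limma adjusted p = 0.00146), and Slc27a2, an acyl-CoA synthetase of the peroxisomal steps, fell by 1.29 ± 0.24. Cyp7a1, the rate-limiting enzyme of the classic pathway, read 32.7, 25.1 and 19.3 in sham 1, 2 and 3 and 72.8, 30.1 and 34.01 FPKM in BDL 1, 2 and 3, and the groups overlapped (0.72 ± 0.33, limma adjusted p = 0.178). Of 21 transporters 5 rose and 5 fell; the number higher ranged from 3 without BDL 2 to 6 without BDL 3 and the number lower from 2 without sham 1, sham 2 or BDL 2 to 7 without BDL 3. The basolateral exporter subunit Slc51b read 0.796, 0.215 and 0.9752 in sham and 8.55, 7.64 and 13.3 FPKM in BDL (2.7 ± 0.27). The efflux pump Abcb1a read 0.263, 0.277 and 0.163 in sham and 5.397, 3.28 and 2.403 FPKM in BDL (1.88 ± 0.24). Both were higher in every BDL library. The uptake carriers Slco1b2 and Slco1a1 fell, Slco1b2 by 1.59 ± 0.31, while Slco1a4 rose by 1.69 ± 0.28. The main sodium-dependent uptake carrier Slc10a1 read 356, 324 and 294 in sham and 218, 137 and 91.1 FPKM in BDL (-1.21 ± 0.31; limma adjusted p = 0.0649 to 0.0809 without any one of sham 1, sham 2 and BDL 2). The canalicular bile salt export pump Abcb11 was not called (-0.65 ± 0.31, limma adjusted p = 0.199; called without BDL 3, limma adjusted p = 0.0303). Of 22 bile acid and lipid sensing receptors 2 rose and 2 fell; the number higher ranged from 0 without sham 2, sham 3 or BDL 2 to 4 without sham 1. The bile acid receptor gene Nr1h4 was not called (-0.54). Its target Nr0b2, a repressor of bile acid synthesis, fell (55.2, 28.01 and 19.4 in sham and 7.57, 10.9 and 19.2 FPKM in BDL, -1.34 ± 0.39; limma adjusted p = 0.0658 to 0.156 without any one of sham 1, sham 2, BDL 1 and BDL 2).

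Circadian genes were called in both directions. Of 23 tested 8 rose and 3 fell, and with 1 library left out the number higher ranged from 1 without BDL 2 to 11 without BDL 3 and the number lower from 2 without sham 2, sham 3, BDL 1 or BDL 2 to 5 without BDL 3. The number higher was 1 without the filter and 3 under quantile normalization, and the number lower 0 without the filter and 5 under quantile normalization. Dbp, a PAR domain activator driven directly by the clock, read 2.02, 0.437 and 0.354 in sham 1, 2 and 3 and 29.97, 48.6 and 3.53 FPKM in BDL 1, 2 and 3. BDL 1 and BDL 2 were high and BDL 3 was nearer to sham (3.4 ± 0.69; limma adjusted p = 0.00768, and 0.0563 without BDL 2). Per1 read 0.241, 0.0372 and 0.311 in sham and 5.55, 7.44 and 0.671 FPKM in BDL (1.92 ± 0.47; limma adjusted p = 0.0675 without sham 1 and 0.117 without BDL 2). The cell cycle kinase Wee1, a direct clock target, was higher in all BDL libraries (1.32, 0.983 and 0.996 in sham and 4.31, 3.898 and 3.997 FPKM in BDL, 1.28 ± 0.2). Nfil3, which opposes Dbp at shared sites, fell, at 9.78, 9.14 and 7.49 in sham and 1.996, 2.46 and 4.64 FPKM in BDL (-1.33 ± 0.27). Cry1, a repressor of the clock, read 3.697, 5.96 and 6.54 in sham and 1.11, 1.59 and 2.31 FPKM in BDL (-1.26 ± 0.26). The core activator Arntl fell by 0.82 ± 0.23 (limma adjusted p = 0.0759 to 0.16 without any one of sham 1, sham 2, sham 3, BDL 1 and BDL 2). The glucocorticoid target Fkbp5 had the same order of libraries, at 4.93, 3.25 and 3.26 in sham 1, 2 and 3 and 42.3, 48.2 and 7.76 FPKM in BDL 1, 2 and 3 (2.48 ± 0.52; limma adjusted p = 0.0678 without BDL 2). The labels used here give no time of collection, so the part of the time of day in these values was not tested.

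Glucose and amino acid genes were called in both directions, where 9.84% of all tested genes were called higher and 3.71% lower. Among the glucose genes the share that fell was above that of all tested genes. Of 36 glucose genes 5 fell and 3 rose; the number higher ranged from 1 without sham 3 or BDL 2 to 6 without BDL 3 and the number lower from 2 without BDL 2 to 7 without BDL 3. G6pc, the last enzyme of gluconeogenesis, read 278, 215 and 297 in sham 1, 2 and 3 and 14.7, 11.8 and 47.6 FPKM in BDL 1, 2 and 3, with no overlap (-3.61 ± 0.42, limma adjusted p = 0.000239). The glycogen phosphorylase Pygl fell by 1.2 ± 0.25, whereas Pck1 was not called (0.53 ± 0.32). Of 52 urea cycle and amino acid catabolism genes 6 rose and 2 fell, near the shares over all tested genes. Without BDL 3 the counts were 12 and 7, and without sham 2 or sham 3 they were 1 and 0. Of 25 hepatocyte transcription factors 2 rose and 3 fell, and Hnf4a, the central factor of hepatocyte identity, was not called (0.15 ± 0.27, limma adjusted p = 0.763). The 49 oxidative phosphorylation genes gave 0 calls (limma; 5 had an unadjusted p under 0.05), and the number lower ranged from 0 without sham 1, sham 2, sham 3, BDL 1 or BDL 2 to 4 without BDL 3.

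Plasma protein genes of the acute phase response, which hepatocytes make under interleukin 6 and interleukin 1, rose. Of 35 tested 22 were higher and 1 lower, with a median of 1.38; the number higher was 9 without the filter and 12 in the fit of all 9 libraries. Orm3, the pentraxin Apcs and the leucine-rich glycoprotein Lrg1 rose by 3.71 ± 0.26, 2.1 ± 0.28 and 2.64 ± 0.4. The serum amyloid genes were unevenly raised. Saa1 read 31.9, 50.3 and 45.6 in sham 1, 2 and 3 and 165, 216 and 1755 FPKM in BDL 1, 2 and 3, and BDL 3 was far above BDL 1 and BDL 2 (3.22 ± 0.68; limma adjusted p = 0.0577 without sham 1). Saa2 had the same order (21.9, 40.1 and 21.2 in sham and 135, 156 and 1109 FPKM in BDL, 3.38 ± 0.63), and Saa1 and Saa2 are near-identical in sequence. The fibrinogen chains Fga, Fgb and Fgg, also positive acute phase genes, were not called (-0.08, 0.13 and -0.03). The listed gene that fell, transthyretin (Ttr), is a negative acute phase protein (4048, 5494 and 4456 in sham and 1472, 1510 and 2522 FPKM in BDL, -1.38 ± 0.3; limma adjusted p = 0.0579 without BDL 2). The cytokine feedback inhibitor Socs3 read 1.695, 2.45 and 3.06 in sham and 13.5, 20.9 and 8.14 FPKM in BDL (2.09 ± 0.31), and of 20 genes of interleukin 6 family receptors and STAT3 6 rose and 2 fell, the number higher being 1 without the filter, 3 under median-ratio scaling and 3 in the fit of all 9 libraries. The receptor gene Lifr fell, from 39.1 ± 5.71 to 6.28 ± 1.85 FPKM (SD, n = 3; -2.49 ± 0.25), and Stat3 rose (1.04 ± 0.26; limma adjusted p = 0.083 to 0.109 without any one of sham 2, sham 3 and BDL 2).

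Complement and protease inhibitor genes went both ways. Of 32 complement genes 8 rose and 4 fell (median -0.1); the number lower ranged from 3 without sham 2, sham 3, BDL 1 or BDL 2 to 8 without BDL 3. The number higher was 4 without the filter and 5 in the fit of all 9 libraries. The central component C3 read 1271, 706 and 764 in sham and 4123, 3785 and 1947 FPKM in BDL (1.82 ± 0.35). The chaperone Clu read 617, 454 and 494 in sham and 1654, 1868 and 1760 FPKM in BDL (1.76 ± 0.25). The terminal component C8b and the mannose-binding lectin Mbl1 fell by 1.44 ± 0.27 and 1.37 ± 0.28. Of 15 genes of the Serpina protease inhibitor cluster 7 fell and 2 rose, and the number lower ranged from 4 without sham 3 to 8 without BDL 3. The list took 5.79, 7.28 and 7.6% of the summed FPKM in sham 1, 2 and 3 and 2.2, 1.57 and 2.47% in BDL 1, 2 and 3. Very abundant members carried this difference. Without the 20 most abundant genes of each library the mean share was 2.07% in sham and 2.21% in BDL. Serpina3k read 7843, 12208 and 12906 in sham and 2807, 1755 and 4053 FPKM in BDL (-1.98 ± 0.36). The corticosteroid-binding globulin gene Serpina6 read 86.4, 98.4 and 88.7 in sham and 19.2, 15.2 and 33.3 FPKM in BDL (-2.04 ± 0.28). Those that rose were Serpina3m (0.99 ± 0.29; limma adjusted p = 0.0582 to 0.134 without any one of sham 1, sham 2, sham 3, BDL 1 and BDL 2) and Serpina3n. The acute phase inhibitor Serpina3n read 162, 141 and 156 in sham and 705, 519.9 and 175 FPKM in BDL (1.38 ± 0.42; limma adjusted p = 0.0735 to 0.202 without any one of sham 1, sham 2, sham 3, BDL 1 and BDL 2). Serpina1 genes are near-identical to one another and Serpina3 genes are related to one another, so reads may be divided within each group. Of 31 coagulation and fibrinolysis genes 5 rose and 1 fell; the number higher ranged from 3 without sham 1, sham 2 or sham 3 to 7 without BDL 3 and the number lower from 0 without sham 1, sham 2, sham 3 or BDL 2 to 6 without BDL 3. The number higher was 3 without the filter, 3 under median-ratio scaling, 3 under quantile normalization and 2 in the fit of all 9 libraries. Prothrombin (F2) was not called (-0.06).

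Myeloid and antigen presentation genes rose, and the share of macrophage markers was higher in every BDL library. Of 28 tested macrophage markers 21 rose and none fell (median 1.61). Their summed share was 0.106, 0.116 and 0.0877% of the summed FPKM in sham 1, 2 and 3 and 0.291, 0.408 and 0.438% in BDL 1, 2 and 3 (exact two-sided permutation p = 0.1, the smallest 3 against 3 allows; 0.22 adjusted over the 11 marker lists). The scavenger receptor Marco read 2.93, 2.93 and 2.23 in sham and 36.9, 52.9 and 59.2 FPKM in BDL (3.76 ± 0.24). Cd14, the lipopolysaccharide co-receptor, read 1.31, 1.62 and 1.19 in sham and 41.6, 34.9 and 24.02 FPKM in BDL (3.83 ± 0.25). The monocyte receptors Cx3cr1 and Ccr2 rose by 1.68 ± 0.19 and 1.32 ± 0.24, and Trem2, a lipid receptor of recruited macrophages, read 0.508, 0.428 and 0.607 in sham and 7.54, 17.7 and 4.33 FPKM in BDL (2.65 ± 0.37). Of other listed genes known from resident Kupffer cells, Vsig4 rose by 1.29 ± 0.24, and Clec4f and Timd4 were not called (0.39 ± 0.32 and 0.76 ± 0.29). Cd14 is also made by hepatocytes in the acute phase response. The 7 tested genes of the MHC class II pathway, which presents antigen to CD4 T cells, were all called higher in the 6 libraries and with any one library left out (median 1.66). H2-Ab1 read 19.2, 13.9 and 10.9 in sham and 41.7, 96.9 and 48.95 FPKM in BDL (1.96 ± 0.32) and H2-Aa 32.3, 37.3 and 29.3 in sham and 79.9, 87.3 and 94.5 FPKM in BDL (1.38 ± 0.22). The invariant chain Cd74 read 50.7, 39.1 and 29.6 in sham and 123, 299 and 127 FPKM in BDL (2.08 ± 0.35). Of 18 class I genes 4 rose and none fell, from 0 without sham 2, sham 3 or BDL 2 to 6 without sham 1.

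Of the other leukocyte lists, 5 of 6 tested neutrophil markers rose, of 17 listed. Markers near 0 in sham, such as Retnlg, passed the filter only through their BDL values, so this count is partly set by the filter. The summed neutrophil share was 0.00151, 0.00428 and 0.00223% of the summed FPKM in sham 1, 2 and 3 and 0.351, 0.291 and 0.128% in BDL 1, 2 and 3, and in the BDL libraries most of it was Lcn2, which epithelia and hepatocytes also make. S100a8 and S100a9, the calprotectin subunits, read 0.661, 3.66 and 1.68 in sham and 14.8, 27.4 and 26.1 FPKM in BDL, and 1.61, 2.405 and 2.52 in sham and 16.5, 17.7 and 33.99 FPKM in BDL. Retnlg was listed at 0 in all sham libraries and at 1.801, 1.53 and 3.05 FPKM in BDL. The granule genes Mpo, Elane and Ltf did not pass the filter. Of 4 T and NK cell markers 1 rose, Ccl5 (1.76 ± 0.5; limma adjusted p = 0.0709 to 0.159 without any one of sham 2, sham 3, BDL 2 and BDL 3). Of 4 B and plasma cell markers 2 rose, among them the immunoglobulin joining chain Jchain (3.71, 0.749 and 0.801 in sham and 14.1, 8.47 and 9.55 FPKM in BDL, 2.22 ± 0.36). The other was Sdc1, and Cd79b and Xbp1 were not called. Most of the summed share of this list was not Jchain, so it is not read as B cell number. Of 6 dendritic cell markers 5 rose, 4 of them class II genes. The neutrophil, T and NK cell, B cell and dendritic cell shares had exact permutation p of 0.1, 0.2, 0.1 and 0.1. The part of immune cell number in the rises of this and the preceding lists was not tested.

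**Figure D4:**
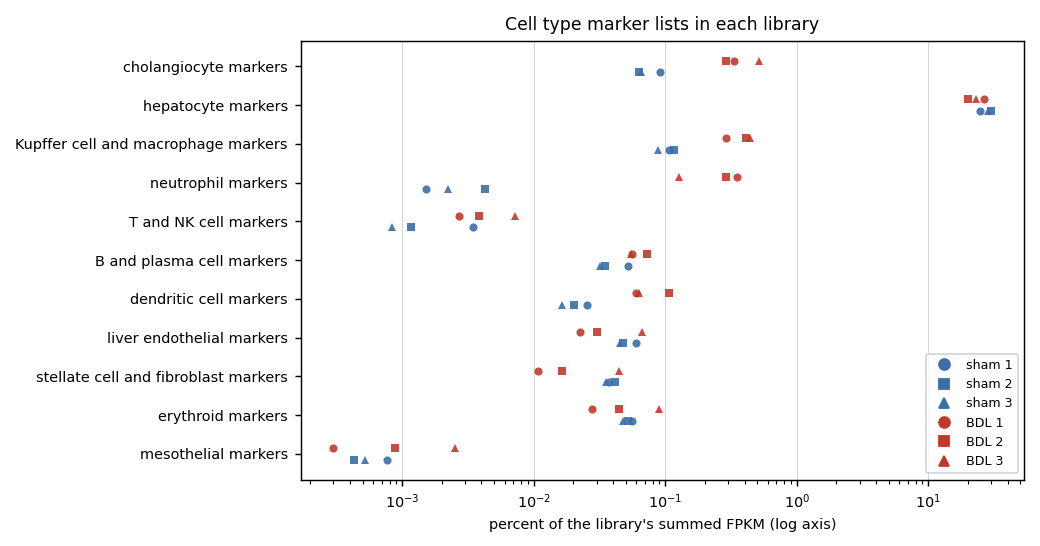
Percent of each library's summed FPKM taken by 11 cell type marker lists, on a log axis, in the 3 sham (blue) and 3 BDL (red) libraries. Cholangiocyte, macrophage, neutrophil, B cell and dendritic cell shares are higher in every BDL than in every sham library, while the endothelial, stellate, erythroid and mesothelial shares of BDL 1 and BDL 3 lie on either side of sham. Most of the B cell share is not Jchain, and most of the neutrophil share in BDL is Lcn2.

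Chemokines and NF-kappaB genes rose in part. Of 16 tested chemokines 8 rose and none fell. The monocyte attractant Ccl2 read 0.241, 0.738 and 0.545 in sham and 6.79, 5.63 and 13.1 FPKM in BDL (2.59 ± 0.29, limma adjusted p = 0.000208). The neutrophil attractant Cxcl1 read 4.27, 3.23 and 0.767 in sham and 27.8, 26.1 and 22.7 FPKM in BDL (2.96 ± 0.35). Ccl6 and Cxcl14 rose by 2.51 ± 0.26 and 2.71 ± 0.29. Ccl2, Cxcl1 and Ccl6 lay above sham in every BDL library. The interferon-induced Cxcl9 and Cxcl10 were not called (-0.18 and 0.55; Cxcl9 was called without BDL 3, limma adjusted p = 0.0329). Of 25 NF-kappaB subunits and targets 12 rose and none fell, with a median of 0.8. The feedback inhibitor Tnfaip3 read 0.549, 0.278 and 0.237 in sham and 2.79, 2.42 and 2.44 FPKM in BDL (1.4 ± 0.19), and the adhesion molecules Icam1 and Vcam1 rose by 1.88 ± 0.29 and 1.38 ± 0.22, whereas Nfkbia was not called (0.45 ± 0.25). Of 25 genes of TRAF6 and Toll-like receptor signalling 5 rose, among them Cd14, Lbp (1.8 ± 0.36) and Tlr13 (1.26 ± 0.19), and 2 fell. Of 48 lysosomal genes 17 rose and none fell (median 0.61; from 10 without sham 3 to 22 without BDL 3). The tetraspanin Cd63 read 2.45, 3.17 and 1.79 in sham and 31.7, 43.4 and 23.98 FPKM in BDL (3.27 ± 0.27). The proton pump subunit Atp6v0d2 read 0.414, 0.267 and 0.1799 in sham and 19.3, 15.4 and 6.54 FPKM in BDL (3.4 ± 0.33). Several of these, such as Cd68 and Ctss, are macrophage markers as well.

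Epithelial genes rose as well. Of 19 tested keratin, annexin and S100 genes of simple epithelia 12 rose and none fell (median 1.05). S100a11 read 7.901, 8.27 and 5.81 in sham 1, 2 and 3 and 69.9, 93.2 and 98.2 FPKM in BDL 1, 2 and 3, with no overlap (3.4 ± 0.24, limma adjusted p = 9.24e-06). Anxa2 read 7.22, 7.65 and 6.43 in sham and 35.6, 28.9 and 55.1 FPKM in BDL (2.29 ± 0.26). Krt18, which hepatocytes and cholangiocytes both make, read 98.99, 63.6 and 69.6 in sham and 526, 486 and 678 FPKM in BDL (2.86 ± 0.26). Of 24 tested cholangiocyte markers 11 rose and 1 fell, with medians over the list of 0.76, 0.62 and 1.72 above the sham mean in BDL 1, 2 and 3. The tetraspanin-like Tm4sf4 read 39.98, 41.8 and 40.8 in sham and 261, 253 and 267 FPKM in BDL (2.64 ± 0.21). Krt7 read 0.347, 0.331 and 0.323 in sham and 2.93, 2.84 and 3.07 FPKM in BDL (1.56 ± 0.18). The matrix phosphoprotein Spp1, also a macrophage gene, read 24.6, 25.9 and 17.3 in sham and 109.5, 64.5 and 551 FPKM in BDL, with BDL 3 the highest (2.77 ± 0.59). The biliary transcription factor Sox9 was not called (0.64 ± 0.32; called without sham 1, limma adjusted p = 0.0353). Below the filter the claudin Cldn4 read 0.0893, 0 and 0.0808 FPKM in sham and 1.52, 1.71 and 1.58 FPKM in BDL. The elongase Elovl7 read 0.0550, 0.0595 and 0.0276 FPKM and 1.88, 1.29 and 2.06 FPKM. These 2, with Spink1, Sprr1a, Gpx2, Chil3, Mmp7 and Retnlg, made up the 8 genes under 0.1 FPKM in all sham libraries and at least 1 in all BDL libraries. The matrix protease Mmp7 is made by injured bile ducts and Chil3 by macrophages, and they rose by 1.67 ± 0.27 and 2.82 ± 0.33.

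Of 32 tubulin and actin cytoskeleton genes 13 rose and 1 fell, and the number higher ranged from 5 without BDL 2 to 16 without BDL 1 and the number lower from 0 without sham 1, sham 2, sham 3, BDL 1 or BDL 2 to 4 without BDL 3. The myosin light chain Myl12a and tropomyosin Tpm1 rose by 1.41 ± 0.24 and 1.42 ± 0.24, in every BDL library. Of 26 junction genes 4 rose and none fell, among them the tight junction proteins F11r (28.2, 20 and 21.4 in sham and 67.4, 58.5 and 75.8 FPKM in BDL, 1.5 ± 0.23) and Ocln (1.15 ± 0.23); the number higher ranged from 3 without sham 2, sham 3 or BDL 2 to 7 without sham 1. The gap junction gene of hepatocytes Gjb1 and E-cadherin (Cdh1) were not called (0.07 and 0.19). Of 16 targets of YAP, a growth regulator that responds to cell tension, 5 rose, from 1 without BDL 2 to 6 without sham 1. Ajuba rose in every BDL library (3.22, 1.03 and 1.14 in sham and 8.796, 11.9 and 7.202 FPKM in BDL, 1.94 ± 0.31), and Yap1 itself was not called (0.04).

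Stromal, endothelial, proliferation and interferon genes differed between BDL 3 and the other BDL libraries. The 19 tested stellate cell and fibroblast markers had medians of -0.86, -0.56 and 0.43 relative to the sham mean in BDL 1, 2 and 3, and the 23 endothelial markers -1.07, -0.66 and 0.42. Both lists were thus below sham in BDL 1 and BDL 2 and above it in BDL 3. Of the stellate list 5 fell and 1 rose, and the number higher ranged from 1 without sham 1, sham 2, sham 3, BDL 2 or BDL 3 to 3 without BDL 1 and the number lower from 1 without BDL 2 to 9 without BDL 3. Of the endothelial list 1 fell, the sinusoidal gene Ehd3 (23.8, 17.9 and 17.7 in sham and 3.58, 5.8 and 15.4 FPKM in BDL, -1.37 ± 0.39; limma adjusted p = 0.0632 to 0.162 without any one of sham 1, sham 2, BDL 1 and BDL 2). Without BDL 3 the number that fell was 12. The stellate list took 0.0372, 0.0412 and 0.0352% of the summed FPKM in sham 1, 2 and 3 and 0.0107, 0.0163 and 0.0448% in BDL 1, 2 and 3. The endothelial list took 0.0601, 0.0478 and 0.0453% of the summed FPKM in sham 1, 2 and 3 and 0.0226, 0.0304 and 0.0661% in BDL 1, 2 and 3. The lectin Colec11, made by stellate cells, fell without overlap (12.04, 16.2 and 11.2 in sham and 1.35, 1.92 and 5.78 FPKM in BDL, -1.96 ± 0.35). The inhibitor of matrix proteases Timp1 rose in every BDL library (0.0731, 0.356 and 0.165 in sham and 3.84, 4.77 and 5.53 FPKM in BDL, 2.25 ± 0.21, limma adjusted p = 7.72e-05). The basement membrane protein Nid1 read 4.46, 2.69 and 2.62 in sham and 24.6, 19.6 and 23.5 FPKM in BDL (2.49 ± 0.24). Of 31 matrix genes 6 rose and 2 fell. The fibrillar collagen genes Col1a1 (1.44, 0.756 and 0.722 in sham and 1.27, 3.68 and 8.98 FPKM in BDL) and Col3a1 (7.03, 6.52 and 5.48 in sham and 4.096, 5.695 and 26 FPKM in BDL) were not called (1.28 ± 0.42 and 0.41 ± 0.49; Col1a1 was called without BDL 1, limma adjusted p = 0.00395).

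The 32 tested cell cycle genes had medians of -0.32, -0.25 and 1.03 relative to the sham mean in BDL 1, 2 and 3, so BDL 3 alone was above sham. Their share was 0.0269, 0.0296 and 0.0248% of the summed FPKM in sham 1, 2 and 3 and 0.025, 0.0276 and 0.0714% in BDL 1, 2 and 3 (exact permutation p = 0.6). Of them 2 rose and 1 fell, and the number lower ranged from 1 without sham 1, sham 2, sham 3, BDL 1 or BDL 2 to 3 without BDL 3. The replication licensing factor Cdt1 read 1.005, 0.879 and 0.434 in sham and 2.17, 4.38 and 3.79 FPKM in BDL (1.31 ± 0.25). Cyclin Ccnd1 read 9.45, 6.44 and 6.03 in sham and 12.1, 16.7 and 56.1 FPKM in BDL (1.53 ± 0.45; limma adjusted p = 0.0708 to 0.0921 without any one of sham 1, sham 2, sham 3 and BDL 2). The gene that fell was the polyploidy regulator E2f8, at 4.38, 3.65 and 2.34 in sham and 0.0971, 0.439 and 0.745 FPKM in BDL (-1.64 ± 0.25). The mitotic gene Top2a read 0.377, 1.36 and 0.7201 in sham and 0.158, 0.148 and 3.59 FPKM in BDL and was not called (limma adjusted p = 0.966). Of 33 interferon-stimulated genes 1 rose and 2 fell; the medians were -0.38, -0.45 and 0.21 in BDL 1, 2 and 3, and 12 fell without BDL 3. Ifit1 read 5.34, 4.55 and 4.69 in sham and 1.11, 0.824 and 3.91 FPKM in BDL (-1.14 ± 0.33; limma adjusted p = 0.0662 to 0.19 without any one of sham 1, sham 2, sham 3, BDL 1 and BDL 2). Of 6 erythroid markers 1 fell, Alas2, the erythroid heme synthesis enzyme (71, 83.9 and 76.8 in sham and 4.27, 6.45 and 25.9 FPKM in BDL, -2.94 ± 0.47), and the globin genes were not called. Of 2 tested mesothelial markers none was called (limma; 1 at an unadjusted p under 0.05).

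**Figure D5:**
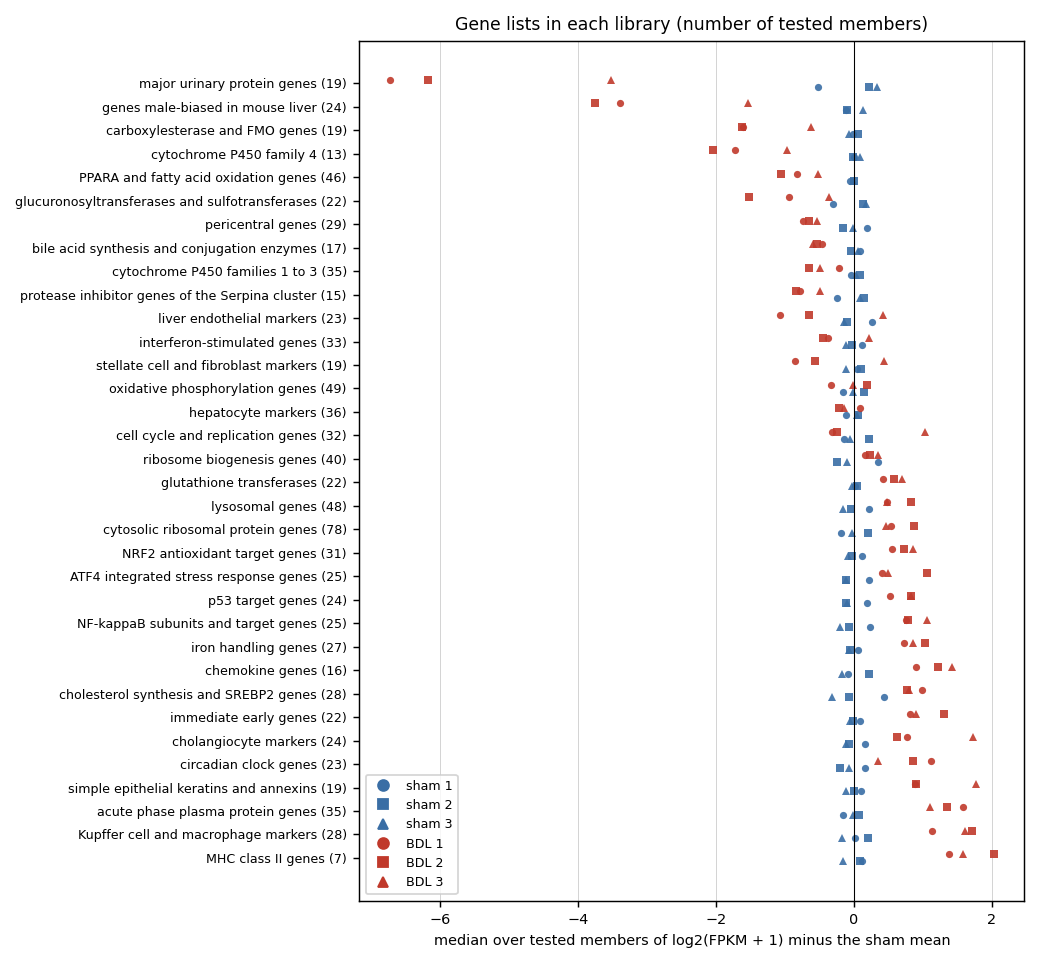
For 34 gene lists, the median over tested members of log2(FPKM + 1) minus the sham mean, in each of the 3 sham (blue) and 3 BDL (red) libraries, with the number of tested members beside each name. The sham libraries lie near 0; BDL 3 (red triangle) is nearer to sham than BDL 1 and BDL 2 in the major urinary protein and male-biased lists and lies on the other side of sham from them in the endothelial, stellate, interferon and cell cycle lists.

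Among stress programs, the amino acid and integrated stress response targets of ATF4 rose in 10 of 25 genes and fell in none (median 0.71). Asparagine synthetase (Asns) read 2.03, 1.006 and 1.62 in sham and 16.4, 13.9 and 4.81 FPKM in BDL (2.18 ± 0.37). The stress factor Atf3 read 0.524, 0.354 and 0.278 in sham and 4.18, 5.45 and 7.31 FPKM in BDL (2.24 ± 0.23). The kinase inhibitor Trib3 read 2.26, 0.427 and 1.02 in sham and 6.36, 12.2 and 3.74 FPKM in BDL (1.87 ± 0.38). Chaperones of the endoplasmic reticulum and XBP1 targets had 2 rises among 34 genes and none fell, and Hspa5, the master chaperone, and Ddit3 of the ATF4 list were not called (-0.48 ± 0.44 and 0.1 ± 0.23; Hspa5 was called without BDL 3, limma adjusted p = 0.0139). Targets of the p53 tumour suppressor rose in 9 of 24, from 4 without BDL 2 to 10 without BDL 1 or BDL 3, among them Btg2 (4.305, 5.802 and 4.17 in sham and 20.8, 20.6 and 19.2 FPKM in BDL, 1.89 ± 0.22) and Phlda3 (1.99 ± 0.28). The cell cycle inhibitor Cdkn1a read 2.45, 2.802 and 12.6 in sham and 15.98, 22.8 and 34.01 FPKM in BDL (2.1 ± 0.46; limma adjusted p = 0.0617 without sham 1 and 0.0652 without BDL 2), and Mdm2 was not called (0.35 ± 0.25). Immediate early genes rose in 12 of 22 and fell in 1: the AP-1 genes Junb, Jund and Jun rose by 1.62 ± 0.32, 1.6 ± 0.32 and 1.45 ± 0.3, and Egr1 was not called (0.11 ± 0.45). Heat shock chaperones had 2 rises and 1 fall among 24 genes, the fall being Hspa1b (3.61, 4.58 and 2.996 in sham and 1.03, 1.55 and 1.23 FPKM in BDL, -1.05 ± 0.22), and the number lower ranged from 1 without sham 1, sham 2, sham 3, BDL 1 or BDL 2 to 6 without BDL 3. The number higher ranged from 0 without BDL 2 to 3 without sham 1.

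The 78 tested cytosolic ribosomal protein genes all had positive differences, with a median of 0.65, and 12 were called higher. The count ranged from 1 without sham 3 to 33 without BDL 3, and was 6 without the filter, 21 with equal sums, 1 under median-ratio scaling and 7 in the fit of all 9 libraries. The list took 3.36, 3.86 and 3.42% of the summed FPKM in sham 1, 2 and 3 and 5.53, 7.11 and 5.0% in BDL 1, 2 and 3. Of 40 ribosome biogenesis genes 1 was called, Gar1 (0.97 ± 0.29; limma adjusted p = 0.0553 to 0.221 without any one of sham 2, sham 3, BDL 2 and BDL 3), and the number higher ranged from 0 without sham 2, sham 3 or BDL 2 to 7 without sham 1. Of 37 proteasome genes 1 was called, Psmd8 (0.92 ± 0.22; limma adjusted p = 0.0669 without sham 2 and 0.0993 without sham 3). The genes of the series title were not called. Myc, the proto-oncogene (chromosome 15, 61985341 to 61990361), read 1.39, 5.28 and 9.26 in sham 1, 2 and 3 and 8.91, 11.8 and 5.801 FPKM in BDL 1, 2 and 3. The groups overlapped, with sham 3 above BDL 1 and BDL 3 (0.83 ± 0.45, limma adjusted p = 0.251). Traf6 (chromosome 2, 101678420 to 101701668) read 5.27, 3.41 and 3.74 in sham and 3.69, 2.595 and 3.35 FPKM in BDL (-0.28 ± 0.23, limma adjusted p = 0.48). Hdac3 read 20.5, 15.3 and 16.2 in sham and 20.6, 20.6 and 21.6 FPKM in BDL (0.27 ± 0.22, limma adjusted p = 0.461). The 95% intervals of the difference were -0.15 to 1.8 for Myc, -0.79 to 0.23 for Traf6 and -0.2 to 0.75 for Hdac3. Of 27 genes of the MYC network and its targets 1 rose, the uracil glycosylase Ung (0.87 ± 0.2; limma adjusted p = 0.0632 to 0.0765 without any one of sham 2, sham 3 and BDL 2). Of the same list 1 fell, the carbohydrate sensor Mlxipl (-1.33 ± 0.35; limma adjusted p = 0.104 without BDL 2), and the number higher ranged from 0 without sham 2, sham 3 or BDL 2 to 3 without BDL 3. Of 16 histone deacetylase and corepressor genes 0 were called (limma; 1 had an unadjusted p under 0.05).

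The called genes that lost the most mean FPKM were Mup3 (from 14724 ± 4268 to 693 ± 1026 FPKM), Serpina1e (from 12286 ± 1936 to 654 ± 713 FPKM), Mup7 (from 10067 ± 3870 to 308 ± 438 FPKM), Serpina3k (from 10986 ± 2744 to 2872 ± 1151 FPKM) and Fabp1 (from 6768 ± 1963 to 762 ± 1158 FPKM; SD, n = 3 throughout). Those that gained the most were Trf (from 5144 ± 754 to 13538 ± 3525 FPKM), Hpx (from 3094 ± 929 to 8684 ± 1311 FPKM), Hp (from 1501 ± 167 to 6140 ± 1717 FPKM), Gstm1 (from 950.1 ± 244 to 5211 ± 1685 FPKM) and Ftl1 (from 2490 ± 89.8 to 5988 ± 2355 FPKM). The calls of Fabp1, Trf and Ftl1 ended without the libraries named above, BDL 2 among them in each (limma adjusted p = 0.07, 0.0717 and 0.0989). Alb, the most abundant transcript in all 6 libraries, was not called (-0.33 ± 0.37, limma adjusted p = 0.604).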

How the data were processed

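PolyA RNA was purified from TRIzol extracts with lithium chloride and made into libraries with an NEBNext Ultra kit, per the labels' protocols. The submitters' processing notes name CASAVA 1.8, fastp, HISAT2 2.0.5, featureCounts 1.5.0-p3, DESeq2 1.20.0 and GRCm38 (mm10), without settings. The authors deposited FPKM per gene in 1 table, which carries no raw counts. The depth of each library was therefore estimated from the steps between low FPKM values of single-transcript genes. Between 50.3 and 56.3% of those values lay within 0.1 of a whole step, too few to recover reads, so no count test was run.

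Genes with a mean of at least 1 FPKM over the 6 libraries were tested on log2(FPKM + 1) with limma 3.58.1 (R 4.3.3; lmFit and eBayes with a variance trend, no covariates). P-values were adjusted over all 9862 genes by Benjamini-Hochberg, and a gene was called at an adjusted p under 0.05. The added 1 FPKM shrinks fold changes of weakly expressed genes on this scale. A gene near 0 in 1 group passed the filter only through the other group, so counts of tested genes that changed are partly set by it. The pipeline was tested on simulated data with 9862 genes for BDL against sham. It recovered 48% of the genes changed by 1 on the log2 scale and 100% of those changed by 2. It also made 18 false calls, a count that is not to be read as a share of the 9862 genes. Set against all calls of that simulation, the false calls were a larger share than the adjusted p threshold of 0.05. The share of false calls in the deposited libraries was not tested. Shares of summed FPKM were compared by an exact permutation test, whose smallest p is 0.1 for 3 against 3 libraries.

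The 67 lists (55 of genes, 11 of cell type markers and the genes of the title) and the comparison itself were chosen with earlier results of these data known, so counts over a list are descriptions. The named genes were the 15 largest rises and falls, the 10 largest gains and losses in mean FPKM, the 10 of smallest p, the 10 of largest spread among BDL libraries, the genes switched on or off, and examples from each list; some list examples were chosen after their values were seen. Of 22173 genes 21954 matched the RefSeq annotation of GRCm38.p6, the source of coordinates and promoter windows. The windows of Gsta1, Gstm3, Orm2 and Lcn2 held none of the motif looked for and are not printed. There were 16 alternatives, 6 of them leaving out 1 library each. Some results are not reported here.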

Additional observations from a re-analysis of the deposited data

Results flagged for a closer look

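Of the 12311 genes of the table that did not pass the filter of 1 FPKM, 14 were listed at 0 in every sham library and at 0.1 FPKM or more in every BDL library. They are shown because they lie outside the fit and were present in BDL alone. Camp, which encodes the antimicrobial peptide cathelicidin of neutrophils, read 1.48, 1.97 and 0.262 FPKM in BDL 1, 2 and 3. The stress kinase gene Mapk13 read 0.680, 0.734 and 0.636 FPKM, Duox2, an epithelial hydrogen peroxide source, 0.608, 0.828 and 0.279 FPKM, and the cystine importer Slc7a11, an NRF2 and ATF4 target, 0.257, 0.206 and 0.165 FPKM. The others included AA467197, Gml, Cacna1b, Guca2b, Msx1, Rnf138rt1, Myo7b, Cacng1 and Apela. The reverse pattern was found in 5 genes. No test was made at these levels, and no fold is given because the sham libraries are listed at 0.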

How the results depend on the processing

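The counts of called genes depended on the setting. The main total of 1336 genes (970 higher, 366 lower) was 871 without a filter, with 200 lower, and 4442 with array weights (3252 higher, 1190 lower), an estimate that stopped before its tolerance was reached. The number lower was 567 under median-ratio scaling and 565 under quantile normalization. With 1 library left out the total ranged from 729 without BDL 2 to 1869 without BDL 3, the number higher from 538 without BDL 2 to 1265 without sham 1 and the number lower from 191 without BDL 2 to 642 without BDL 3. Deviations of libraries with the same replicate number correlated at 0.033, -0.204 and 0.250, and those with unlike numbers at -0.404 to 0.382. The labels do not say whether libraries of the same number were handled together. With 3 libraries centred on their group mean, these correlations cannot decide it. The fit with a replicate block called 1178 genes, 854 higher and 324 lower. Of the 216 tested genes named, 168 were called, and 136 of these were called with any 1 library left out. Without the filter 51 of these calls were lost, in the fit of all 9 libraries 26, under median-ratio scaling 13, under quantile normalization 8 and with the replicate block 4, while array weights added 18 calls. The genes whose sign changed under any of the 16 alternatives were all among the 48 not called. Their log2 difference is given here. With a pseudocount of 0.1 it was -0.03 for Socs2 and -0.43 for Top2a. With equal sums it was 0.00 for Fgg. Under median-ratio scaling it was -0.08 for Apoa1, -0.01 for Cdh1, -0.04 for Cpt1a, -0.02 for Ddit3, -0.09 for Egr1, -0.08 for Fgb, -0.13 for Gjb1, -0.05 for Hnf4a, -0.08 for Jak2, -0.05 for Socs2, -0.06 for Tfrc, -0.08 for Top2a and -0.16 for Yap1. Under quantile normalization it was -0.01 for Cdh1, 0.19 for Cyp3a11, -0.10 for Ddit3, -0.07 for Egr1, 0.12 for Fga, 0.15 for Fgg, -0.06 for Gjb1, -0.15 for Jak2, -0.16 for Socs2, -0.08 for Tfrc, -0.20 for Top2a and -0.17 for Yap1. With array weights it was -0.01 for Col3a1, 0.19 for F2, 0.22 for Fga, 0.09 for Fgg, -0.34 for Tfrc, -0.36 for Top2a and 0.09 for Ugt1a1. With 1 library left out it ranged from -0.20 to 0.44 for Cdh1, -0.32 to 0.88 for Col3a1, -0.02 to 0.45 for Cpt1a, -0.92 to 0.23 for Cxcl9, -0.52 to 0.34 for Cyp3a11, -0.02 to 0.29 for Ddit3, -0.48 to 0.55 for Egr1, -0.16 to 0.14 for F2, -0.38 to 0.09 for Fga, -0.13 to 0.27 for Fgb, -0.24 to 0.12 for Fgg, -0.23 to 0.28 for Gjb1, -0.09 to 0.37 for Hnf4a, -1.09 to 0.02 for Hspa5, -0.02 to 0.18 for Jak2, -0.36 to 0.80 for Socs2, -0.37 to 0.55 for Tfrc, -0.62 to 0.38 for Top2a, -0.71 to 0.14 for Ugt1a1 and -0.10 to 0.25 for Yap1. The erythroid share in BDL over that in sham was 0.974 without the 20 most abundant genes, and 0.693 to 1.29 with 1 library left out. Without those genes the same ratio also changed side for the iron list, to 0.684, and for the Serpina list, to 1.07. It changed side as well for lists whose shares are not given above. Among them were NRF2 targets (1.97 to 0.718), growth hormone axis genes (0.335 to 2.84), coagulation genes (1.23 to 0.812) and MHC class I genes (1.27 to 0.939). For glutathione transferases it went from 1.47 to 1.0. Of the 67 gene lists, the number called higher or lower moved by over 1.5 times, in lists where either count reached 3, in 36 without the filter, 50 with array weights, 17 in the fit of all 9 libraries, 14 under median-ratio scaling, 13 under quantile normalization, 4 with a filter at 0.1 FPKM, 2 with equal sums and 1 with the replicate block. The causes were not tested. The estimated depth, 27.2 to 33.8 mega fragments, sets the smallest level that can be read, and the 3 libraries per group limit the size of change that can be called.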
